A study of Oryctolagus cuniculus with 12 samples.

Results

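The genes described here are those of the early secretory pathway and of the unfolded protein response, measured by bulk RNA-seq in the rabbit ear model of hypertrophic scar. Members were the rows of the deposited table whose symbol was on a list of 46 genes, and 36 of the 46 were found, none of them on more than 1 row. The table listed 29587 genes, 13287 of them passed the filter on low values, and all 36 members were among these. CALR, P4HB, DNAJB11, CRELD2, XBP1, ATF4, KDELR1, SEC61B, SPCS2 and TMED9 carried no row under their symbol and were not analysed as members.

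RNA was taken from full thickness ear tissue of wild-type (WT) female rabbits, in 4 groups with 3 samples each. The methods of the study give 10 to 12 weeks as the age of the purchased rabbits, and no age at harvest. Normal skin (NS) came from rabbits that were neither wounded nor treated. Hypertrophic scar (HS) was raised in ventral ear wounds from which epidermis, dermis and perichondrium had been cut away, and it was left untreated. With drug-loaded MNs, scars received 1 patch of separating microneedles per lesion, whose tips stay in the tissue and carry a prodrug of 5-fluorouracil acetic acid, and scars of the 5-Fu injection group received 0.1 mL with 120 μg of 5-fluorouracil per lesion, in both groups on days 22, 29 and 36 after wounding. All tissue was harvested on day 43. Each group had its own 3 rabbits, but the labels do not tie a library to a rabbit or a lesion, so p-values measure the spread between these samples. NS differs from HS by the wounding as well as by the scar, and a group with drug-free microneedles was not analysed here.

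Proteins bound for secretion enter the endoplasmic reticulum (ER) through the Sec61 translocon, fold there with the help of chaperones and oxidoreductases, and leave in vesicles coated by the COPII proteins. Procollagen is a long, stiff trimer that needs its own prolyl isomerases and a cargo receptor to fit into COPII carriers, and fibroblasts that lay down scar collagen carry a heavy load of it. When unfolded proteins build up, the sensors IRE1, PERK and ATF6 raise chaperones through XBP1, ATF4 and ATF6, and the related factors CREB3L1 and CREB3L2 drive genes of secretion and matrix production in collagen-making cells.

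Levels are in FPKM (fragments on a gene scaled by its length and by library size). Libraries held 10521472 to 14043667 reads on genes, so that 1 read over 1 kilobase was worth 0.0768 to 0.0972 FPKM. No member was thinly covered, since the fewest reads in any sample were 86 on FKBP14 and 99 on TRAM2. The scar label was checked with fibroblast genes, of which 9 of 10 listed were found and 8 were up-regulated in HS against NS, PDGFRB by 0.99, DCN by 1.62 and LUM by 4.48 on the log2 scale. Their summed level was 2638 to 3708 FPKM in NS, 37847 to 49859 in HS, 19390 to 27828 with drug-loaded MNs and 5401 to 27274 with 5-Fu injection. The list of 10 included the collagen genes COL1A1, COL1A2 and COL3A1, whose products are cargo of this pathway. The sum therefore also holds collagen RNA and does not measure fibroblast content alone. In bulk tissue, fewer cells of a type and less RNA per cell cannot be told apart, which holds for every value below. Plasma cells, which also carry a large ER, had 7 of 8 listed genes in the table, none of them called, and their summed level was 152 to 218 FPKM in NS, 175 to 250 in HS, 260 to 596 with drug-loaded MNs and 193 to 1272 with 5-Fu injection. The part of either cell type in the results below was not tested.

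**Figure D1:**
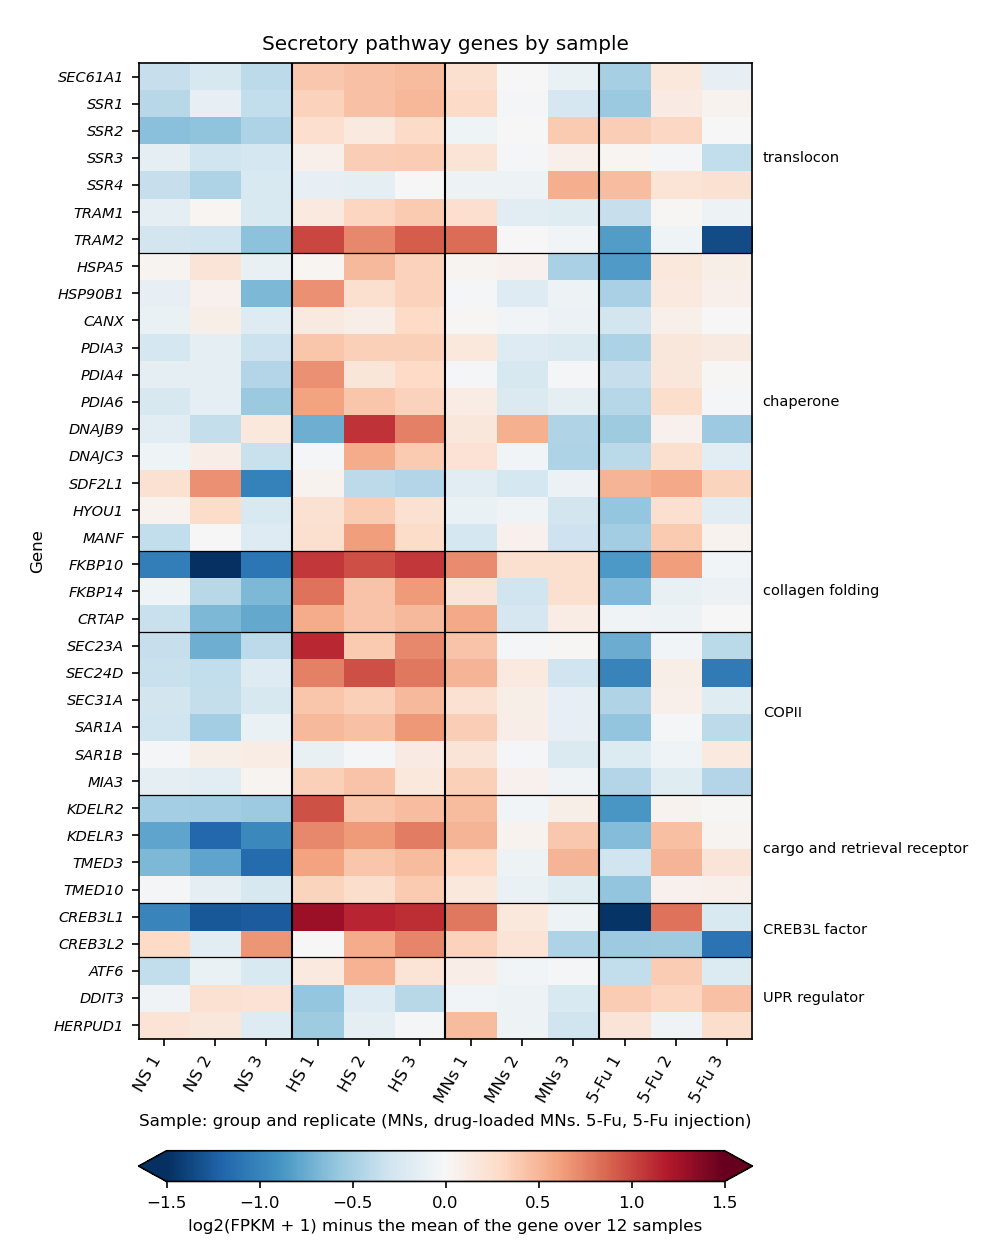
Each row is 1 of the 36 genes and each column 1 of the 12 samples, with 3 replicates in each of the 4 groups. Colour gives log2(FPKM + 1) minus the mean of that gene over the 12 samples, red above it and blue below, with values beyond 1.5 drawn in the end colours. The 3 HS columns are red in most rows down to the CREB3L factors, while DDIT3 near the bottom is blue there.

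The comparison of HS with NS asked which secretory genes differ between untreated scar and unwounded ear. Of the 36 members, 16 were up-regulated and 1 was down-regulated (limma on log2(FPKM + 1), adjusted p under 0.05), against 5.24% of all tested genes higher and 2.21% lower. The median log2 fold change of the members was 0.62, and that of all tested genes was -0.01. With the additional demand of an absolute log2 fold change above 1, used by the study for its differentially expressed genes (DEGs), 10 members were up-regulated, against 3.53% of all tested genes. The samples of the 2 groups did not overlap for 27 of the 36 members, against 33.3% of all tested genes in either direction. By role, 3 of 3 collagen folding genes, 3 of 4 cargo and retrieval receptors, 4 of 6 COPII genes, 4 of 7 translocon genes and 1 of 2 CREB3L factors were up-regulated. Of 11 general chaperones and oxidoreductases 1 was up-regulated, and of 3 regulators of the unfolded protein response none was. With so few genes, these 2 counts are near the share of all tested genes. Of the 11 chaperones and oxidoreductases, 10 had a positive change, with a median of 0.49.

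These values follow the scaling inside the deposited FPKM, which balances the typical gene between samples. When the samples were scaled to their total reads instead, the median of all genes in HS against NS moved to -0.33 and that of the members to 0.26, which is 0.59 above it. The calls over all genes then turned from 696 higher and 294 lower to 446 higher and 2191 lower, and 6 members were still up-regulated: CREB3L1, CRTAP, FKBP10, KDELR3, SEC23A and TMED3. The same 6 were called in HS against NS under each of the 16 alternative settings tried, SEC24D and TRAM2 under 8 of them.

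At the translocon, the entry gate of the ER, TRAM2 showed the widest shift between scar and skin. TRAM2, a translocon-associated protein known for its part in collagen synthesis (ENSOCUG00000012094, chr12:42050725-42134512), stood at 8.09, 7.98 and 6.21 FPKM in NS, 21.0, 17.1 and 19.8 in HS, 18.8, 10.1 and 9.74 with drug-loaded MNs and 5.18, 9.54 and 3.34 with 5-Fu injection. All 3 HS samples lay above all 3 NS samples, and the log2 fold change was 1.27 ± 0.31 (standard error, SE; adjusted p = 0.0324). SSR2, a subunit of the translocon-associated protein complex (ENSOCUG00000008455, chr13:36832900-36839479), was far more abundant, at 220, 223 and 246 FPKM in NS, 405, 378 and 416 in HS, 324, 341 and 447 with drug-loaded MNs and 438, 424 and 341 with 5-Fu injection. It was up-regulated in HS by 0.80 ± 0.16 (adjusted p = 0.0140), again with no overlap, and the samples of both treatments spanned the HS range. SEC61A1, the channel itself, rose by 0.76 ± 0.17 (adjusted p = 0.0196) and SSR1 by 0.73 ± 0.20 (adjusted p = 0.0467), although the call of SSR1 held in 3 of the 16 alternative settings. SSR3, SSR4 and TRAM1 had log2 fold changes of 0.50, 0.26 and 0.40 and were not called, and that of SSR4 turned negative with scaling to total reads. SSR4 had the highest mean level of all members, 765 FPKM over the 12 samples.

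Of the 11 general chaperones and oxidoreductases, 10 had a positive log2 fold change in HS against NS, with a median of 0.49 over the 11, and 1 was called. HSPA5, the Hsp70 chaperone BiP that holds the stress sensors inactive (ENSOCUG00000011636, on an unplaced scaffold), stood at 288, 321 and 261 FPKM in NS, 287, 395 and 357 in HS, 288, 293 and 200 with drug-loaded MNs and 156, 314 and 299 with 5-Fu injection. HS and NS overlapped, and the log2 fold change of 0.25 ± 0.26 (adjusted p = 0.613) had a 95% interval of -0.33 to 0.83 and became -0.11 with scaling to total reads. PDIA6, a disulfide isomerase, was the chaperone that passed the test, with 256 ± 37.6 FPKM in NS and 435 ± 40.1 in HS (SD, n = 3) and a log2 fold change of 0.77 ± 0.20 (adjusted p = 0.0373), a call that held in 6 of the 16 alternative settings. Its relatives PDIA3 and PDIA4 had values of 0.62 and 0.62 with adjusted p = 0.0708 and 0.0605 (limma), and their HS samples also lay above all NS samples. HSP90B1 (0.67), MANF (0.56), DNAJB9 (0.49), DNAJC3 (0.41), HYOU1 (0.24), CANX (0.24) and SDF2L1 (-0.23) were not called, and the signs of HYOU1 and CANX turned with scaling to total reads. DNAJB9, a target of XBP1, was the least even of them in scar, at 26.7, 96.0 and 76.5 FPKM.

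All 3 measured genes of collagen folding were up-regulated, and the widest change of any member was among them. FKBP10, a prolyl isomerase needed for procollagen folding and crosslinking (ENSOCUG00000000611, chr19:42713118-42718967), stood at 135, 74.8 and 131 FPKM in NS, 584, 545 and 582 in HS, 457, 329 and 330 with drug-loaded MNs and 154, 432 and 271 with 5-Fu injection. The lowest HS sample was above every other sample of the study, and the log2 fold change against NS was 2.36 ± 0.34 (adjusted p = 0.00293). CRTAP, which belongs to the complex that hydroxylates a single proline of the collagen chain (ENSOCUG00000007741, chr14:20051106-20090733), stood at 27.7, 21.7 and 20.1 FPKM in NS, 52.0, 47.7 and 49.5 in HS, 52.7, 29.2 and 38.0 with drug-loaded MNs and 33.9, 33.1 and 35.1 with 5-Fu injection. It rose by 1.08 ± 0.19 (adjusted p = 0.00779) and did not overlap between HS and NS. FKBP14, a further collagen isomerase (ENSOCUG00000000805, chr10:14433678-14445151), was scarce, at 6.95, 5.23 and 4.19 FPKM in NS, 13.6, 10.1 and 11.9 in HS, 8.47, 5.71 and 8.80 with drug-loaded MNs and 4.25, 6.67 and 6.82 with 5-Fu injection. Its HS samples exceeded all the others, with a change against NS of 1.01 ± 0.23 (adjusted p = 0.0239).

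Among the COPII genes, the inner coat and its GTPase rose, and the cargo receptor was not called. SEC23A, the inner coat subunit whose loss is known to impair collagen export in the skeleton (ENSOCUG00000009925, chr17:58640344-58705851), stood at 13.6, 10.1 and 13.1 FPKM in NS, 39.8, 23.3 and 29.6 in HS, 24.0, 17.1 and 17.8 with drug-loaded MNs and 10.1, 17.0 and 13.1 with 5-Fu injection. SEC24D, its partner that picks cargo (ENSOCUG00000013272, chr15:94031025-94168279), stood at 27.7, 27.1 and 30.7 FPKM in NS, 60.5, 70.0 and 61.9 in HS, 50.8, 39.2 and 28.5 with drug-loaded MNs and 17.1, 37.5 and 16.3 with 5-Fu injection. Both were higher in every HS sample than in any NS sample, SEC23A by 1.24 ± 0.23 (adjusted p = 0.0104) and SEC24D by 1.14 ± 0.29 (adjusted p = 0.0352). SAR1A, the GTPase that starts coat assembly (ENSOCUG00000004547, chr18:16757244-16770660), stood at 76.4, 65.3 and 88.4 FPKM in NS, 132, 129 and 149 in HS, 123, 101 and 86.4 with drug-loaded MNs and 62.6, 92.7 and 71.9 with 5-Fu injection. It rose by 0.83 ± 0.18 (adjusted p = 0.0206), and SEC31A of the outer coat rose by 0.71 ± 0.15 (adjusted p = 0.0168), both without overlap. SAR1B, the paralog of SAR1A, had a change of -0.06 ± 0.14 (adjusted p = 0.823). MIA3, the receptor TANGO1 that loads procollagen into carriers (ENSOCUG00000025154, chr16:50400279-50453469), stood at 13.03, 12.7 and 14.9 FPKM in NS, 18.7, 19.6 and 16.2 in HS, 18.7, 15.1 and 13.9 with drug-loaded MNs and 10.3, 12.6 and 10.3 with 5-Fu injection. Its HS samples also lay above NS, but the change of 0.40 ± 0.15 did not pass (adjusted p = 0.136).

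Receptors that return ER residents from the Golgi, or sort cargo between the compartments, rose in the scar in 3 of 4 cases. KDELR3 (ENSOCUG00000004979, chr4:84675822-84711773), a receptor for the KDEL retrieval signal that chaperones carry, stood at 68.3, 52.3 and 60.6 FPKM in NS, 198, 186 and 203 in HS, 171, 124 and 158 with drug-loaded MNs and 75.6, 164 and 123 with 5-Fu injection. Its paralog KDELR2 (ENSOCUG00000003101, on an unplaced scaffold) stood at 46.5, 46.1 and 45.6 FPKM in NS, 130, 89.5 and 92.7 in HS, 93.1, 64.8 and 70.9 with drug-loaded MNs and 36.1, 69.5 and 67.7 with 5-Fu injection. KDELR3 rose by 1.69 ± 0.24 (adjusted p = 0.00293) and KDELR2 by 1.14 ± 0.25 (adjusted p = 0.0198), and neither overlapped between HS and NS. TMED3, a p24 protein of the vesicle membrane (ENSOCUG00000021808, on an unplaced scaffold), stood at 133, 123 and 95.3 FPKM in NS, 325, 285 and 298 in HS, 262, 203 and 304 with drug-loaded MNs and 173, 304 and 244 with 5-Fu injection. It rose by 1.38 ± 0.22 (adjusted p = 0.00522) with no overlap, while its relative TMED10 had a change of 0.46 ± 0.18 (adjusted p = 0.155).

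The pair of CREB3L factors differed from each other in the scar. CREB3L1, the factor OASIS that drives type I collagen genes (ENSOCUG00000004418, chr1:185637811-185673513), stood at 29.7, 24.3 and 24.6 FPKM in NS, 148, 133 and 130 in HS, 104, 66.9 and 57.1 with drug-loaded MNs and 21.0, 106 and 51.0 with 5-Fu injection. The HS samples lay above all the others, and the change against NS was 2.35 ± 0.44 (adjusted p = 0.0102). CREB3L2, which drives Sec23a in cartilage, had 20.8 ± 6.09 FPKM in NS and 23.3 ± 6.06 in HS (SD, n = 3), a change of 0.16 ± 0.29 (adjusted p = 0.775) whose sign turned with scaling to total reads. The difference between the factors was not tested.

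The genes grouped as regulators of the unfolded protein response were ATF6, DDIT3 and HERPUD1, while XBP1 and ATF4 had no row under their symbol. None of these 3 was up-regulated in HS, against 5.24% of all tested genes, a count near that share. DDIT3, the factor CHOP that is made under lasting stress (ENSOCUG00000023877, on an unplaced scaffold), stood at 38.1, 46.6 and 46.2 FPKM in NS, 26.0, 34.5 and 29.4 in HS, 38.2, 37.6 and 33.6 with drug-loaded MNs and 51.7, 49.7 and 53.9 with 5-Fu injection. It was lower in all HS samples than in any NS sample, by -0.53 ± 0.14 (adjusted p = 0.0382), but this call held in 7 of 16 alternative settings, whose adjusted p ran from 0.00549 to 0.135 (limma). HERPUD1, which serves ER-associated degradation and is induced by stress (ENSOCUG00000010054, chr5:13156941-13168256), stood at 59.3, 58.1 and 44.9 FPKM in NS, 35.1, 46.3 and 50.7 in HS, 71.8, 48.7 and 41.7 with drug-loaded MNs and 59.0, 49.6 and 61.7 with 5-Fu injection. The groups overlapped, and its change in HS was -0.30 ± 0.21 (adjusted p = 0.445). ATF6 itself had a change of 0.52 ± 0.20 (adjusted p = 0.137).

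**Figure D2:**
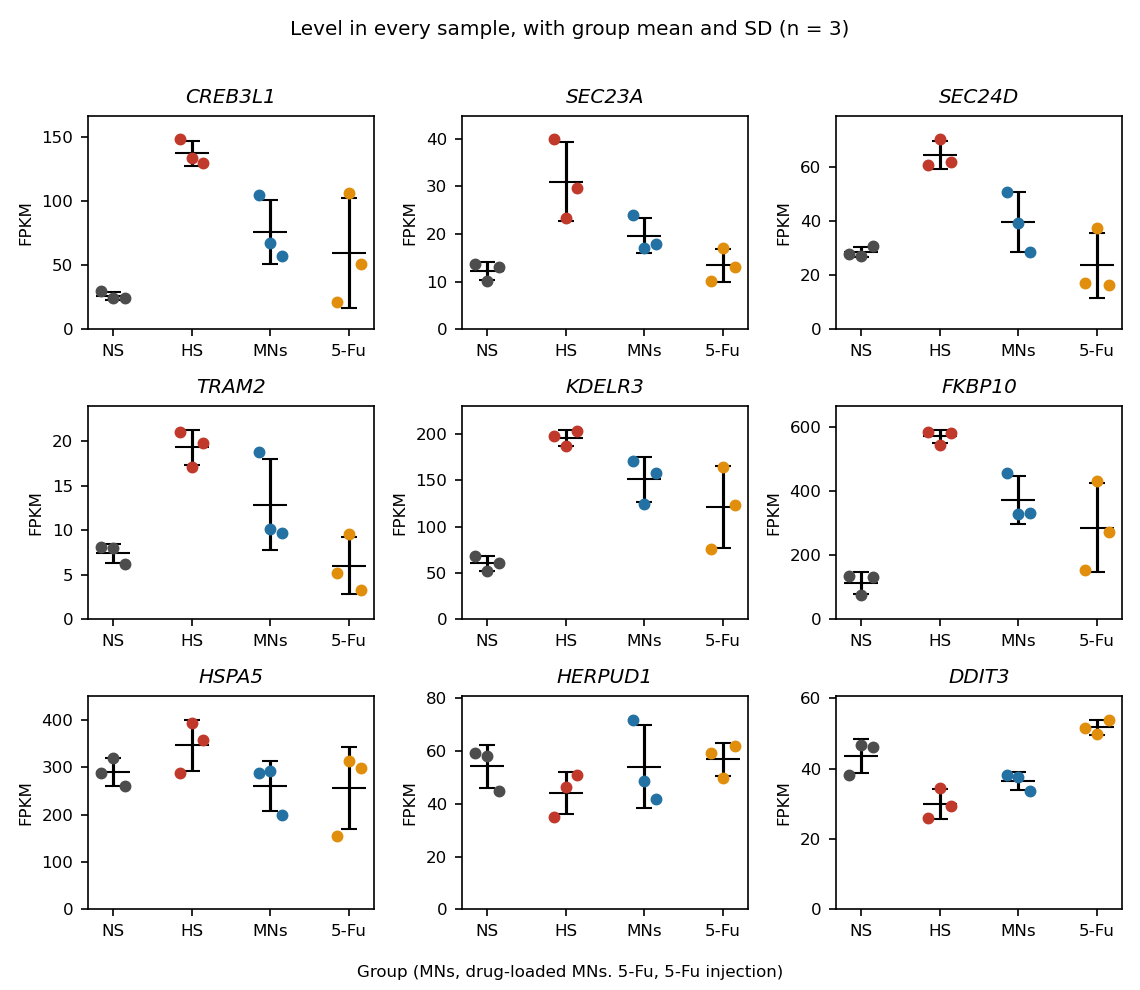
FPKM of 9 genes in every sample (points), with the mean and SD of the 3 samples of each group (bars), on linear axes that start at 0. CREB3L1, SEC23A, SEC24D, TRAM2, KDELR3 and FKBP10 stand highest in HS, whereas HSPA5 overlaps across groups and DDIT3 is lowest in HS and highest with 5-Fu injection.

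Setting drug-loaded MNs against HS asked what the microneedle treatment changed in scars. None of the 36 members passed the test in either direction (limma, smallest adjusted p = 0.470), against 0.00753% of all tested genes higher and 0.0% lower, and limma voom on reads counted back from the FPKM called none as well. At an unadjusted p under 0.05, 11 members were lower and none was higher, against 8.9% of all tested genes in either direction. The log2 fold change was negative for 32 of the 36 members, with a median of -0.40 where that of all tested genes was -0.02, and 18 members did not overlap between the groups, against 18.9% of all tested genes in either direction.

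The lowest adjusted p among these belonged to PDIA6, with 300 ± 36.5 FPKM after drug-loaded MNs against 435 ± 40.1 in HS (SD, n = 3) and a change of -0.54 (95% interval -0.97 to -0.11). The most negative value was that of CREB3L1, at -0.88 (95% interval -1.85 to 0.08, adjusted p = 0.595), although its highest treated sample of 104 FPKM lay below the lowest HS sample of 130. SEC24D had a change of -0.72 (95% interval -1.35 to -0.09, adjusted p = 0.509) with no overlap, and MIA3 one of -0.19 (95% interval -0.52 to 0.14, adjusted p = 0.772) with overlap. The intervals of PDIA6 and SEC24D lay below 0 before adjustment, and those of CREB3L1 and MIA3 included it. DDIT3 and HERPUD1 had values of 0.28 and 0.27 and were not called. Replicate 1 was the highest of its group for 27 of the 36 members and replicate 3 the lowest for 21, and the fibroblast sum was likewise highest in replicate 1, at 27828 FPKM, and lowest in replicate 3, at 19390. Summed keratinocyte genes ran the other way, at 3705, 4004 and 8633 FPKM in replicates 1, 2 and 3 against 1340 to 1910 in HS, and so did chondrocyte genes, at 853, 2264 and 4763 FPKM against 472 to 4698 in HS. The part of these cell types in the changes was not tested.

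The comparison of 5-Fu injection with HS, which shares the HS samples with the one above, found 8 members down-regulated and 1 up-regulated (limma, adjusted p under 0.05), against 3.17% of all tested genes lower and 1.23% higher. The median log2 fold change of the members was -0.50 and that of all tested genes 0.02. Of the 8, TRAM2, SEC24D, CREB3L2 and SEC23A also fell by more than 1 on the log2 scale, the bound of the study for DEGs, against 1.78% of all tested genes. With scaling to total reads, the median of all genes moved to 0.13 and that of the members to -0.36, and the calls over all genes turned from 164 higher and 421 lower to 300 higher and 242 lower.

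By role, 5 of 6 COPII genes, 1 of 7 translocon genes, 1 of 3 collagen folding genes and 1 of 2 CREB3L factors were down-regulated after 5-Fu injection. TRAM2 fell by 1.63 ± 0.31 (adjusted p = 0.0272), to levels of 3.34 to 9.54 FPKM against 17.1 to 21.0 in HS. SEC24D fell by 1.504 ± 0.29 (adjusted p = 0.0272) and SEC23A by 1.14 ± 0.23 (adjusted p = 0.0295). CREB3L2, at 11.1, 11.2 and 7.17 FPKM against 16.6, 25.0 and 28.4 in HS, fell by 1.16 ± 0.29 (adjusted p = 0.0479). The other members that fell were FKBP14 (-0.91), SAR1A (-0.86), MIA3 (-0.67) and SEC31A (-0.60). SAR1B, at -0.04, was the COPII gene that was not called, and the 8 calls held in 4 to 9 of the 16 alternative settings.

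CREB3L1 and FKBP10, the members with the widest rise in HS, had changes of -1.47 ± 0.44 (adjusted p = 0.0749) and -1.12 ± 0.34 (adjusted p = 0.0774) after 5-Fu injection and were not called. Their 5-Fu injection samples were far apart, from 21.0 to 106 FPKM and from 154 to 432 FPKM. None of the 11 chaperones was called, a count near the 3.17% of all tested genes lower, and 10 had a negative change, with a median of -0.44. HSPA5 had a change of -0.49 (95% interval -1.07 to 0.10, adjusted p = 0.268). SSR2 had a change of -0.00 (95% interval -0.36 to 0.35, adjusted p = 0.993). DDIT3 was the member that rose, by 0.78 ± 0.14 (adjusted p = 0.0255), from 26.0 to 34.5 FPKM in HS to 49.7 to 53.9, with no overlap.

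Replicates of the 5-Fu injection group were uneven over the members. Replicate 2 was the highest of its group for 27 of the 36 members and replicate 1 the lowest for 25. Replicate 2 also had a fibroblast sum, which includes collagen genes, of 27274 FPKM, against 5401 and 6964 in replicates 1 and 3. Replicate 1 had a plasma cell sum of 1272 FPKM, 1057 of it from JCHAIN, against 213 in replicate 2 and 193 in replicate 3. Replicate 1 had chondrocyte and keratinocyte sums of 5413 and 5405 FPKM as well, against 466 and 2787 in replicate 2 and 935 and 3050 in replicate 3, and the part of these differences was not tested. Without replicate 2, 15 members were lower and 1 was higher, where the calls over all tested genes also grew, to 965 lower (7.26%) and 583 higher (4.39%). The added members were CREB3L1, FKBP10, HYOU1, KDELR2, KDELR3, PDIA6 and SEC61A1. Without replicate 1 or replicate 3, or without any 1 of the HS samples, no member passed, and none passed when only these 2 groups were fitted. In these settings 0 to 17 of all 13287 tested genes were called.

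**Figure D3:**
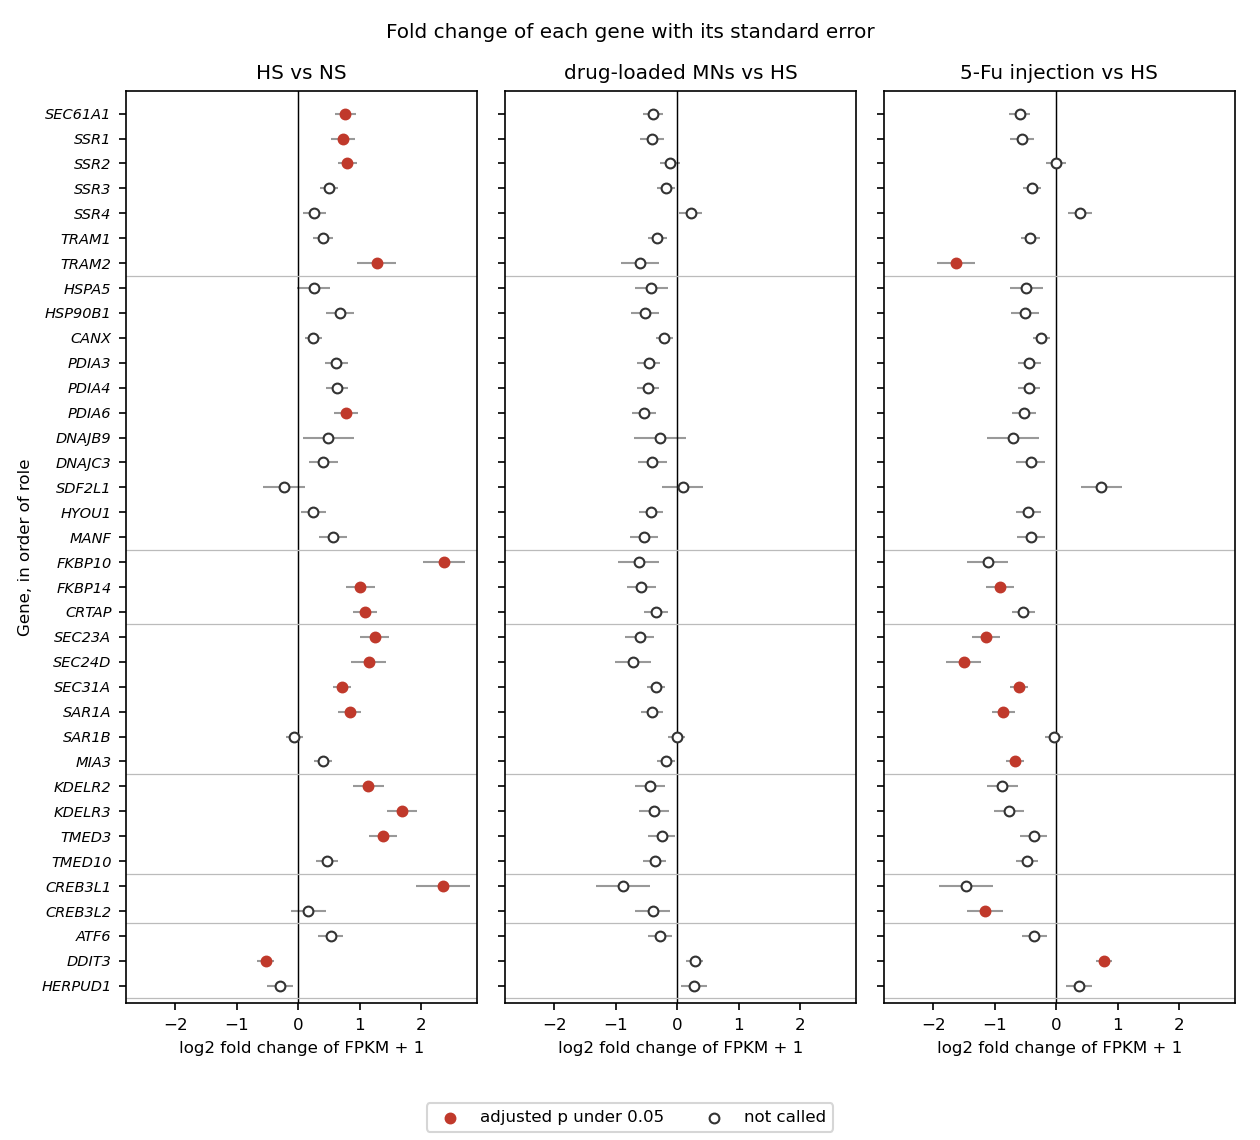
Log2 fold change of FPKM + 1 for each of the 36 genes, in order of role, with the SE of the fit as bars, in HS against NS, drug-loaded MNs against HS and 5-Fu injection against HS. Filled red points had an adjusted p under 0.05: 17 in HS against NS, none in drug-loaded MNs against HS and 9 in 5-Fu injection against HS, all comparisons sharing the HS samples.

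Setting treated scars against NS asked how far their levels lay from unwounded ear. After drug-loaded MNs, 3 members were higher than in NS and none was lower, against 0.866% and 0.0978% of all tested genes: FKBP10 by 1.73 ± 0.34 (adjusted p = 0.0424), KDELR3 by 1.30 ± 0.24 (adjusted p = 0.0342) and TMED3 by 1.12 ± 0.22 (adjusted p = 0.0434). All 3 calls were lost when any NS or drug-loaded MNs sample was left out, where 0 to 115 of all tested genes were called. After 5-Fu injection no member passed against NS (limma, smallest adjusted p = 0.117, and none by limma voom), where the share of all tested genes was 0.00753% higher and 0.0% lower. At an unadjusted p under 0.05, 6 members were higher and 1 lower, against 14.9% of all tested genes in either direction, and the lower one was CREB3L2 at -0.998 (adjusted p = 0.197).

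The direct comparison of drug-loaded MNs with 5-Fu injection found no member that passed (limma, smallest adjusted p = 0.250, and none by limma voom), against 0.0% of all tested genes in both directions. At an unadjusted p under 0.05, 6 members were higher with drug-loaded MNs and 1 was lower, against 15.1% of all tested genes in either direction. TRAM2 had the widest of these differences, 1.02 (95% interval 0.33 to 1.71, adjusted p = 0.250), followed by SEC24D with 0.78 (95% interval 0.16 to 1.41, adjusted p = 0.279) and CREB3L2 with 0.76 (95% interval 0.13 to 1.40, adjusted p = 0.292). All 6 COPII genes had a positive difference, from 0.03 to 0.78. DDIT3 was the lower one, at -0.50 (95% interval -0.79 to -0.20).

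Collagen-export factors and general stress genes were then set side by side. The export factors were CREB3L1, CREB3L2 and the 6 COPII genes, and the stress genes were 10 of 13 listed chaperones and regulators: HSPA5, HSP90B1, DNAJB9, DNAJC3, SDF2L1, HYOU1, MANF, ATF6, DDIT3 and HERPUD1. The chaperones PDIA3, PDIA4, PDIA6 and CANX were on neither list, so the stress counts and medians leave them out. Their changes in HS against NS were 0.62, 0.62, 0.77 and 0.24, and PDIA6 was called. In HS against NS, 5 of 8 export factors were up-regulated with a median of 0.77, against 5.24% of all tested genes. Of the 10 stress genes 0 were up-regulated, a count near that share, and 1 was down-regulated, against 2.21% of all tested genes. Their median was 0.33, with a positive change for 7 of the 10 and a negative one for DDIT3, HERPUD1 and SDF2L1. After drug-loaded MNs, none of either was called, against 0.00753% of all tested genes higher and 0.0% lower, and the medians were -0.41 and -0.34. After 5-Fu injection, 6 of 8 export factors were down-regulated with a median of -1.001, against 3.17% of all tested genes. Of the 10 stress genes 0 were down-regulated, a count near that share, and 1 was up-regulated, against 1.23% of all tested genes. Their median was -0.41, with a negative change for 7 and a positive one for 3. XBP1, listed but found by description only, had a change of -1.09 (limma, adjusted p = 0.0975).

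Per sample, the mean of log2(FPKM + 1) over a list, after centring each gene on its mean over the 12 samples, gives its relative level. The export level minus the stress level tells which list stood higher relative to its own mean, not which had more FPKM. This difference was -0.20, -0.56 and 0.09 in NS, 0.59, 0.22 and 0.43 in HS, 0.36, 0.10 and 0.10 with drug-loaded MNs and -0.42, -0.23 and -0.48 with 5-Fu injection. The HS values lay above all NS and 5-Fu injection values and overlapped with those of drug-loaded MNs, while the 5-Fu injection values lay within the range of NS. The group means were -0.23 ± 0.33 in NS, 0.41 ± 0.19 in HS, 0.19 ± 0.15 with drug-loaded MNs and -0.37 ± 0.13 with 5-Fu injection (SD, n = 3). The export level alone had means of -0.29, 0.56, 0.11 and -0.38 in the same order, and the stress level -0.06, 0.14, -0.08 and -0.00. The stress level averages 7 genes with a positive and 3 with a negative change in HS against NS, which partly cancel. Because the lists were drawn up with results of these data known, the difference is given as a description without a test.

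**Figure D4:**
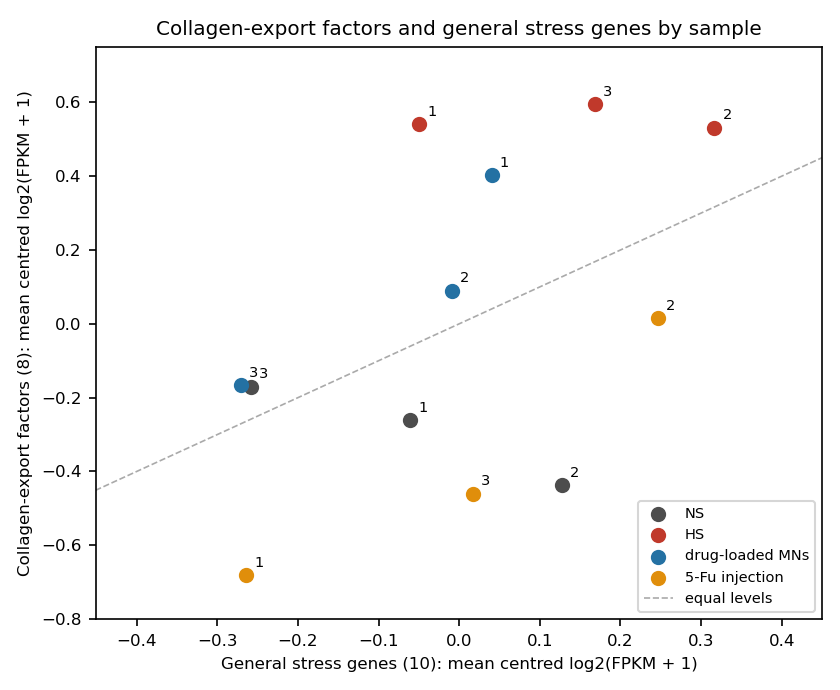
Each point is 1 sample, labelled with its replicate number. The horizontal axis gives the mean centred log2(FPKM + 1) of 10 general stress genes and the vertical axis that of 8 collagen-export factors, with a dashed line where both are equal. The 3 HS samples lie between 0.53 and 0.60 on the vertical axis, above all the others, while the stress levels of the groups overlap.

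Other genes of the same pathway, from lists that hold no member, gave the surroundings of these values. Of the 104 tested, 19 were up-regulated and 1 was down-regulated in HS against NS, against 5.24% and 2.21% of all tested genes. In HS against NS, 4 of 10 genes of N-glycosylation at the translocon were up-regulated and none was down-regulated (median 0.57), among them TUSC3 (1.37) of the oligosaccharyltransferase and UGGT2 (1.05), which tags misfolded glycoproteins. Of 19 other folding and oxidation genes 5 were up-regulated (median 0.39): the disulfide isomerases TXNDC5 (1.68) and PDIA5 (0.80), and the prolyl isomerases FKBP7 (1.65), FKBP9 (1.62) and PPIC (1.56). TXNDC5 went from 65.0 to 78.3 FPKM in NS to 218 to 256 in HS.

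Of 17 other COPII and ER exit genes 3 were up-regulated (median 0.33), LMAN1 (1.42), a lectin that carries glycoproteins to the Golgi, YIPF5 (0.49) and ERGIC3 (0.47), while SEC24A, SEC24B, SEC23B and SEC13, which build the same coat, had values of 0.35, 0.02, 0.25 and 0.43 and were not called. The counts were 2 of 12 for COPI and retrieval (median 0.34), namely COPZ2 (1.07) and COPA (0.69), 1 of 17 for signal recognition and translocation (median 0.15), namely the signal peptidase SEC11A (0.71), a share near that of all tested genes, and 2 of 15 for ER-associated degradation (median 0.27), namely the ubiquitin ligase adaptor SEL1L (1.24) and the lectin ERLEC1 (0.70). Of 14 further sensors and targets of the unfolded protein response, 2 were up-regulated and 1 was down-regulated (median 0.03): MBTPS1 (0.61), the protease that frees ATF6 and the CREB3L factors, VLDLR (1.25), and CEBPB (-0.90). The stress target ATF3 had a value of -1.17 (adjusted p = 0.0661) and the PERK sensor gene EIF2AK3 one of 0.61 (adjusted p = 0.0714), and neither was called.

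After 5-Fu injection against HS, 8 of the 104 other pathway genes were down-regulated and none was up-regulated, against 3.17% and 1.23% of all tested genes. They were SEL1L (-1.35), LMAN1 (-1.27), EDEM3 (-0.84), TXNDC5 (-0.84), MAGT1 (-0.77), UGGT2 (-0.73), COPA (-0.72) and YIPF5 (-0.47). SEL1L stood at 7.20 to 11.7 FPKM after 5-Fu injection against 24.5 to 29.0 in HS, with an adjusted p of 0.0224 (limma). After drug-loaded MNs against HS, none of the 104 was called in either direction.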

How the data were processed

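The authors deposited 1 table of FPKM values per gene and sample, with gene length and symbol, from mRNA libraries sequenced on a NovaSeq. Aligner, counter and genome build are not given in the sources used here, and coordinates are those of the table. The study used a negative binomial test on counts. Since FPKM are not counts, limma 3.58.1 in R 4.3.3 was fitted here to log2(FPKM + 1), as 1 linear model of the 4 groups over 13287 genes (mean FPKM no lower than 1), with a trended prior and Benjamini-Hochberg adjustment over all tested genes in each comparison. Called means adjusted p under 0.05. A fold change on this scale understates that of low genes. FPKM times gene length fell on whole reads in 100% of values (tolerance 0.05 of a read), so reads were counted back for limma voom as an alternative. The library size inside the FPKM was 0.873 to 1.20 times the reads on genes, so it was not the total.

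Every member could be named. Values in every sample are given for the 12 called members with the widest change in HS against NS and for MIA3, HSPA5, DDIT3 and HERPUD1, and values of CREB3L2 and DNAJB9 were added after they were seen. The members, the marker and pathway lists and this rule were chosen with earlier results of these data known. Marker lists not described above gave summed FPKM as follows. The keratinocyte sum was 2169 to 3784 in NS, 1340 to 1910 in HS, 3705 to 8633 with drug-loaded MNs and 2787 to 5405 with 5-Fu injection. The chondrocyte sum spanned 466 to 5413 over all samples, skeletal muscle 47.4 to 553, macrophage 417 to 1222, endothelial cell 310 to 505 and sebaceous gland 102 to 146. Replicate numbers were not used to pair the samples, since groups had separate rabbits and the labels name no batch. The correlation of same-numbered deviations ran from -0.27 to 0.44, which does not exclude a batch shared by same-numbered samples. The limma script was tested on simulated data. No sequence was used.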

Additional observations from a re-analysis of the deposited data

How the results depend on the processing

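The counts of called members depended on the setting, and the cause was not tested. In HS against NS, the count of 17 became 7 with scaling to total reads, 10 with an absolute log2 fold change above 1 as well, and 6 to 11 when 1 replicate was left out. In 5-Fu injection against HS, the count of 9 became 1 without the filter, 5 with scaling to total reads, 0 with only the groups compared, 3 with the replicate block, 4 with an absolute log2 fold change above 1 as well, and 0 to 16 when 1 replicate was left out, the 16 without 5-Fu injection replicate 2. In drug-loaded MNs against NS, the count of 3 became 0 without the filter, with scaling to total reads, with the replicate block and without any 1 replicate, 0 to 0. In 5-Fu injection against NS, the count of 0 became 0 to 1 when 1 replicate was left out, KDELR3 without 5-Fu injection replicate 1. The replicate block moved no other count by over 1.5 times, but DDIT3 lost its call in HS against NS. The export minus stress difference was 0.95 in HS against NS, -0.54 in drug-loaded MNs against HS and -1.19 in 5-Fu injection against HS with the stress regulators ATF6, DDIT3 and HERPUD1 alone, where the full list gave 0.64, -0.22 and -0.79. Signs turned for HSPA5 in HS against NS (-0.11) and for SSR2 in drug-loaded MNs against HS (0.028) and 5-Fu injection against HS (0.13) with scaling to total reads. SSR2 in the last comparison ran from -0.071 to 0.109 when 1 replicate was left out. The sign of SAR1B, at -0.01 and -0.04 in these treatment comparisons, also turned in both with scaling to total reads. In drug-loaded MNs against HS it turned with quantile normalization and upper quartile scaling as well. With 3 samples a group, the SE of a member's log2 fold change ran from 0.14 to 0.44, which limits what could be detected.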

Other observations

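Of the 10 listed genes without a symbol in the table, 5 were found among the tested rows by their protein description, a step chosen after the table's names were seen. XBP1 and SEC61B had 2 rows with a matching description and SPCS2 had 3, and the row with the highest mean FPKM was used. XBP1, the factor through which the IRE1 sensor acts, had 200 ± 5.51 FPKM in NS, 233 ± 12.3 in HS, 187 ± 74.1 with drug-loaded MNs and 120 ± 67.9 with 5-Fu injection (SD, n = 3). Its log2 fold change was 0.22 ± 0.36 in HS against NS (adjusted p = 0.761) and -1.09 ± 0.36 in 5-Fu injection against HS (adjusted p = 0.0975, limma), and XBP1 splicing, which sets its activity, is not seen in gene totals. KDELR1, the third KDEL receptor, was up-regulated in HS against NS by 0.92 ± 0.15 (adjusted p = 0.00555), from 22.4 to 29.9 FPKM to 46.5 to 54.5. SEC61B, a small subunit of the translocon, was up-regulated by 0.60 ± 0.14 (adjusted p = 0.0259). DNAJB11 and SPCS2 had values of 0.09 and 0.24 and were not called.

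Rows described as calreticulin (CALR) and TMED9 fell below the filter, at no more than 0.515 and 1.99 FPKM in any sample, and no row was matched for P4HB, CRELD2 and ATF4. The match rests on the description alone, so these values may not be the levels of CALR and TMED9 themselves. In 5-Fu injection against HS and drug-loaded MNs against HS, none of the 5 genes found among the tested rows was called.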
